A study of Homo sapiens with 12 samples.

Results

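The S100 genes encode small calcium-binding proteins, and 10 of them (S100A2, S100A4, S100A6, S100A7, S100A8, S100A9, S100A10, S100A11, S100A14, and S100A16) were followed in TIGK cells by their gene names, out of 58735 genes with counts. TIGK cells are keratinocytes of the human gingiva made immortal with telomerase (hTERT), and every group holds this single line. All 4 groups were kept at 48 mM glucose in a base medium without arginine. The control groups received no L-Arginine (Arg) for 24 h or 48 h, and the Arg groups received 500 μM Arg for the same times. Each group had 3 libraries of polyadenylated RNA (A, B, and C), 12 in all, and nothing in the labels says that they came from independent cultures, so the p-values measure the spread between these libraries. The libraries held between 16542243 and 19040964 counts.

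S100 proteins are small and acidic, carry a pair of EF-hand loops that bind calcium, and mostly work as dimers. Calcium binding opens a surface through which they dock on annexins, the cytoskeleton, and other partners inside the cell, and some are released and act on receptors of other cells. In stratified epithelia such as the gingiva, S100A2 is typical of the basal layer, while S100A7, S100A8, and S100A9 rise in stressed, differentiating, or inflamed epithelium and have antimicrobial activity. The transcripts reported here are mRNA levels of a bulk culture, in which fewer cells expressing a gene and less RNA per cell cannot be told apart.

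The label of the cells was checked against marker genes. All 10 markers of basal keratinocytes (among them KRT5, KRT14, and TP63) were expressed, with a summed level between 43250 and 55129 CPM (the counts of a gene scaled to a common library size of 1e+06 counts) over the 12 libraries. Of the 8 markers of blood cells, LYZ, CSF3R, and FCGR3B had 0 counts in every library and PTPRC had at most 8, and their summed level was at most 3.77 CPM, most of it from CD14. S100B, which marks melanocytes and nerve sheath cells, and TYR, the tyrosinase of melanocytes, also had 0 counts in every library, while MITF and PMEL were present and the 5 melanocyte markers summed to between 16.2 and 30.6 CPM. Endothelial markers summed to at most 6.41 CPM, and CDH5 had 3 counts in a single library. Of the fibroblast markers, COL1A2 had at most 1 count and COL3A1 at most 4, while DCN and COL1A1 were present. Control replicate B at 48 h stood apart from its group, and results at 48 h with Arg are given with and without it. Its levels of differentiation keratins were also apart from its group and near those of the Arg libraries, with KRT13 at 3455 CPM, against 1525 CPM in replicate A, 1430 CPM in replicate C, and 2812 to 3011 CPM with Arg at 48 h. Mitochondrially encoded genes took 1.55% of its counts, against 0.906% and 0.707% in replicates A and C, and its chi-square per degree of freedom against them was 20.9 and 23.9, where the other pairs of replicates had between 3.66 and 12.5.

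The 10 genes together made up between 0.334% and 0.475% of the counts of a library. S100A6 alone contributed 22.2% of these counts, and S100A14 (18.9%), S100A10 (18.5%), S100A16 (16.9%), and S100A11 (16.1%) most of the rest. To compare genes with each other, CPM after TMM normalization were divided by the exonic length of each gene in the deposited table, which gives RPKM. S100A11, which binds annexin A1, had the highest mean over the 12 libraries (919 ± 145 RPKM, SD, n = 12), followed by S100A6 (calcyclin, a partner of annexins and of CACYBP) with 885 ± 145 RPKM. The ranges of these 2 genes overlapped. S100A14 followed with 573 ± 23.6 RPKM, below every library of S100A6, and then S100A10 with 464 ± 24.2 RPKM. S100A10 has lost calcium binding and forms a stable complex with annexin A2. S100A16 had 387 ± 61.8 RPKM, and its range overlapped that of S100A10.
The other 5 genes were lower. S100A2 had 145 ± 82.5 RPKM and reached into the range of S100A16 above and that of S100A9 below. S100A9 and S100A8, which form the heterodimer calprotectin, had 45.1 ± 11.3 and 10.01 ± 2.41 RPKM. S100A4, a regulator of nonmuscle myosin, had 26.4 ± 9.33 RPKM, and its range overlapped that of S100A9 but not that of S100A8. S100A7 (psoriasin) was near the limit of detection, with 1.08 ± 0.649 RPKM. It had between 4 and 21 counts in 11 libraries and 0 counts in Arg replicate C at 24 h, where 3 counts, the limit that a count of 0 allows, would be 0.161 CPM.
The mRNA levels also differed in how steady they were. Between the lowest and the highest of the 12 libraries, S100A14 varied 1.14-fold, S100A10 1.19-fold, and the other highly expressed members between 1.56-fold and 1.70-fold. The less expressed members varied more, S100A9 by 2.22-fold, S100A8 by 2.58-fold, S100A4 by 2.64-fold, and S100A2 by 5.62-fold.

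**Figure D1:**
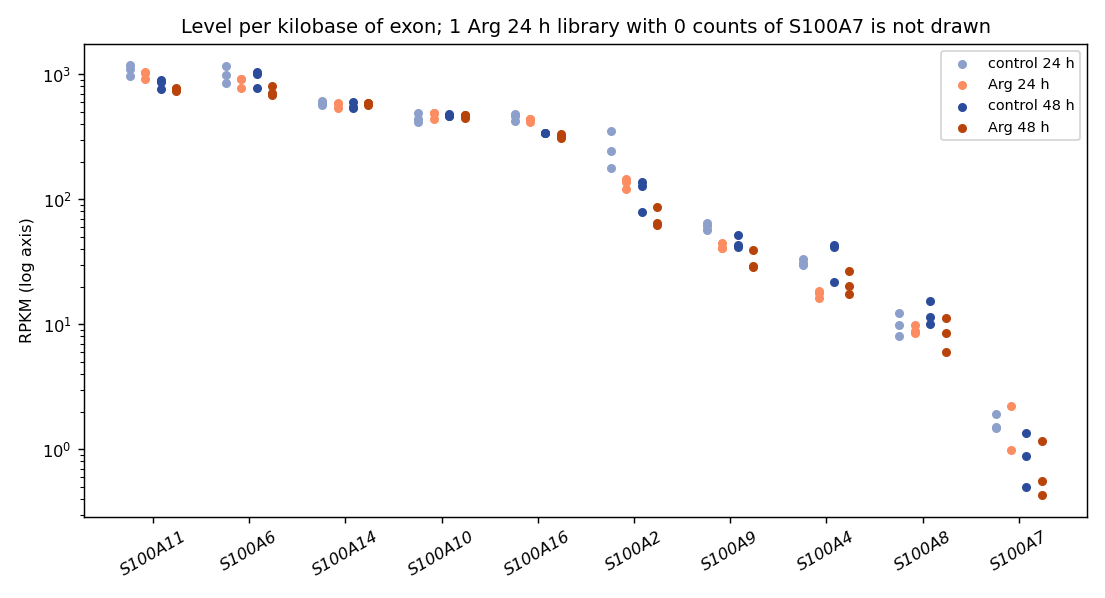
Level of each S100 gene in RPKM (log axis), 1 point per library (the library with 0 counts of S100A7 is not drawn), coloured by group and ordered by the mean over 12 libraries. The 5 genes on the left have no library below 311 RPKM, while S100A2 moves most between the groups and S100A7 lies near 1 RPKM.

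All 10 genes lie on chromosome 1 of GRCh38, within 1634 kb. S100A10 (151982915 to 151994390) and S100A11 (152032506 to 152047907) lie on their own, and the other 8 are clustered in 259 kb from the start of S100A9 (153357854 to 153361027) to S100A14 (153614255 to 153616986). S100A9 is the only member on the plus strand. S100A4 (153543613 to 153550136), S100A6 (153534599 to 153536244), and S100A2 (153561108 to 153567890) are close neighbours, with gaps of 7.37 kb and 10.97 kb between them. S100A4 spans the whole of S100A3 on the same strand (352 counts over all libraries, against 5922 for S100A4). How the counting treated reads that fall in both genes is not given in the sources used here. Antisense transcripts overlap S100A6 (65 counts, against 187085) and S100A11 (17 counts, against 135641), and the 16 annotated S100 pseudogenes had 1 count in all.

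Start sites of all 10 genes were found in RefSeq (GRCh38.p14), with 14 start windows of 300 bases, each from 250 bases before to 50 bases after a start. Of these, 4 windows are printed, because they belong to the 3 genes that fell with Arg at 24 h (S100A2, S100A4, and S100A9) and to S100A10, whose level hardly moved. For S100A2, the window of the upstream start of the 2 in RefSeq is shown. The window of its other start holds no match to the motifs named next. Capitals mark matches, on either strand, to TGANTCA (the AP-1 motif), TATAAA (the TATA box), or GGGCGG (the GC box), and no match overlaps another in these 4 windows. The sequences run 5′ to 3′ along the strand of the gene.
S100A2 (chr1:153565795-153566094, minus strand): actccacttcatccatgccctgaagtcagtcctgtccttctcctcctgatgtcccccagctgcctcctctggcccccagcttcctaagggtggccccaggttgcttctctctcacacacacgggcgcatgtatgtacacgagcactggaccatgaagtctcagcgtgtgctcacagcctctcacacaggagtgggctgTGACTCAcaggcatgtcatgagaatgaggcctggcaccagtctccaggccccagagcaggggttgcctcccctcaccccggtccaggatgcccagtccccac
S100A4 (chr1:153545757-153546056, minus strand): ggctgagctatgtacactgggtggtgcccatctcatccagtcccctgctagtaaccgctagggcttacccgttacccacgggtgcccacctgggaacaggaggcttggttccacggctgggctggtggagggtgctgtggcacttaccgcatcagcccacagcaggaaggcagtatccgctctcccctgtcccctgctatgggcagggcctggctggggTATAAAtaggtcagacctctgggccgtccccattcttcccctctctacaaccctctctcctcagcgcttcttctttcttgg
S100A9 (chr1:153357604-153357903, plus strand): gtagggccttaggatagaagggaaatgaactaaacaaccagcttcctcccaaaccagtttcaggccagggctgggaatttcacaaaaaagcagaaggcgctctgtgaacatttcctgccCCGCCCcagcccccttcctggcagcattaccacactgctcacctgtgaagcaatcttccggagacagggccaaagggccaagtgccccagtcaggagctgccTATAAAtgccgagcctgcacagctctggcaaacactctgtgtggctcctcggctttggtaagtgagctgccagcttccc
S100A10 (chr1:151993810-151994109, minus strand): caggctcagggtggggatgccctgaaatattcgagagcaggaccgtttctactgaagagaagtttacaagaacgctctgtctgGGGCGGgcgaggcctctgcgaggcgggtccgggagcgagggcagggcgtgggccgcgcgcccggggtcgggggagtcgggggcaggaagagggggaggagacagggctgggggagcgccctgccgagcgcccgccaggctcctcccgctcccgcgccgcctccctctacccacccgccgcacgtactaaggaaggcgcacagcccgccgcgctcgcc
S100A2 was the only member with an AP-1 match, which begins at −52, counted in bases from its upstream start. This motif was in 1 of the 14 windows of the members and in 7.71% of all 35116 RefSeq windows. TATAAA was found in 4 members, S100A4 (at −31), S100A9 (at −29), S100A7 (at −28), and S100A8 (at −29 from a start). It was in 5 of the 14 windows, as overlapping windows of S100A8 share a match, and in 11.5% of all windows. A GC box was found in 5 members, S100A6, S100A9, S100A10, S100A11, and S100A16. It was in 5 of the 14 windows and in 45.0% of all windows. Of the members with a TATA match, all 4 are among the 5 with the lowest RPKM. These matches describe letters only, and no binding was measured.

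With Arg for 24 h, S100A2, S100A4, and S100A9 fell, and no member rose. In edgeR's quasi-likelihood test, 3 of 10 members were lower at an adjusted p under 0.05 (Benjamini–Hochberg over all 14279 genes tested), against 3.84% of all genes, and 0 were higher, against 2.79%. At an unadjusted p under 0.05, the same 3 members passed as lower (11.9% of all genes) and 0 as higher (10.8%), and DESeq2 likewise called 3. In the same 3 genes, every Arg library lay below every control library (13.4% of all genes), and in 0 members every Arg library lay above (12.9%). The median log2 fold change was −0.18 over the 10 members and 0.0030 over all genes tested.
S100A2, which can bind p53, had 383, 281, and 548 CPM in control replicates A, B, and C and 190, 217, and 226 CPM in the Arg replicates. The control libraries spread widely, and even the lowest of them lay above the highest Arg library. The mean fell from 404 ± 135 to 211 ± 19.1 CPM (SD, n = 3), a log2 fold change of −0.94 ± 0.16 (SE, edgeR adjusted p = 0.00164) or 1.92-fold lower. It stayed below an adjusted p of 0.05 with each library left out in turn, with log2 fold changes between −1.15 (without control replicate B) and −0.66 (without control replicate C).
S100A4 had 31.7, 30.4, and 34.3 CPM in the control libraries and 18.2, 16.8, and 18.8 CPM in the Arg libraries. Both groups were tight and well apart. The log2 fold change was −0.84 ± 0.11 (SE, edgeR adjusted p = 0.000146), or 1.79-fold lower.
S100A9 had 32.9, 35.2, and 36.9 CPM in the control libraries and 23.4, 23.6, and 25.6 CPM in the Arg libraries. The groups did not overlap, and the log2 fold change was −0.53 ± 0.10 (SE, edgeR adjusted p = 0.00440), or 1.45-fold lower. S100A8, its partner in calprotectin, had 8.06, 9.93, and 12.4 CPM in the control libraries and 9.88, 8.61, and 8.91 CPM in the Arg libraries. The groups of S100A8 overlapped, and its log2 fold change of −0.15 ± 0.17 (SE, edgeR adjusted p = 0.660, 95% interval −0.52 to 0.22) did not pass, while the lower end of this interval came close to the change of S100A9. Whether the changes of S100A8 and S100A9 differ was not tested.
The highly expressed members moved little at 24 h. The log2 fold change was −0.21 for S100A6 (95% interval −0.42 to 0.0036), −0.13 for S100A11 (−0.30 to 0.052), −0.084 for S100A16 (−0.24 to 0.077), −0.059 for S100A14 (−0.21 to 0.095), and 0.076 for S100A10 (−0.095 to 0.25). None passed in edgeR's test, and their Arg and control libraries overlapped. S100A6 passed only without control replicate B (−0.31, adjusted p = 0.0246 in edgeR). Replicate B was its lowest control library (826 CPM, against 966 and 1125 CPM), so leaving it out was bound to widen the difference. S100A7, with 14 to 19 counts in the control libraries and 0 to 21 in the Arg libraries, gave −0.63 with a standard error of 0.68, so that no difference was detectable at this depth.
Mitochondrially encoded genes took between 0.624% and 0.802% of the counts in the Arg libraries at 24 h and between 1.20% and 1.30% in the control libraries. The summed level of the 5 melanocyte markers was also lower with Arg at 24 h (between 16.2 and 19.0 CPM, against between 21.6 and 25.9 CPM), through MITF (15.7 ± 1.27 against 22.04 ± 2.52 CPM), with MLANA at no more than 3 counts in these 6 libraries and DCT at no more than 2. The fibroblast marker DCN was lower as well, with 19.5 ± 4.84 CPM against 31.7 ± 8.81 CPM (log2 fold change −0.70, edgeR adjusted p = 0.0294), while COL1A1 did not pass. Of the 10 basal keratinocyte markers, ITGA6 was lower (780.3 ± 43.9 against 1026 ± 105 CPM, log2 fold change −0.40, edgeR adjusted p = 0.00840) and the other 9 did not pass. Of the blood cell markers, of which S100A8 and S100A9 are well-known companions in neutrophils and monocytes, 3 of 8 were at 0 in every library, and the summed level was between 1.34 and 2.27 CPM with Arg and between 2.20 and 3.55 CPM without. The part of these in the S100 changes was not tested.

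**Figure D2:**
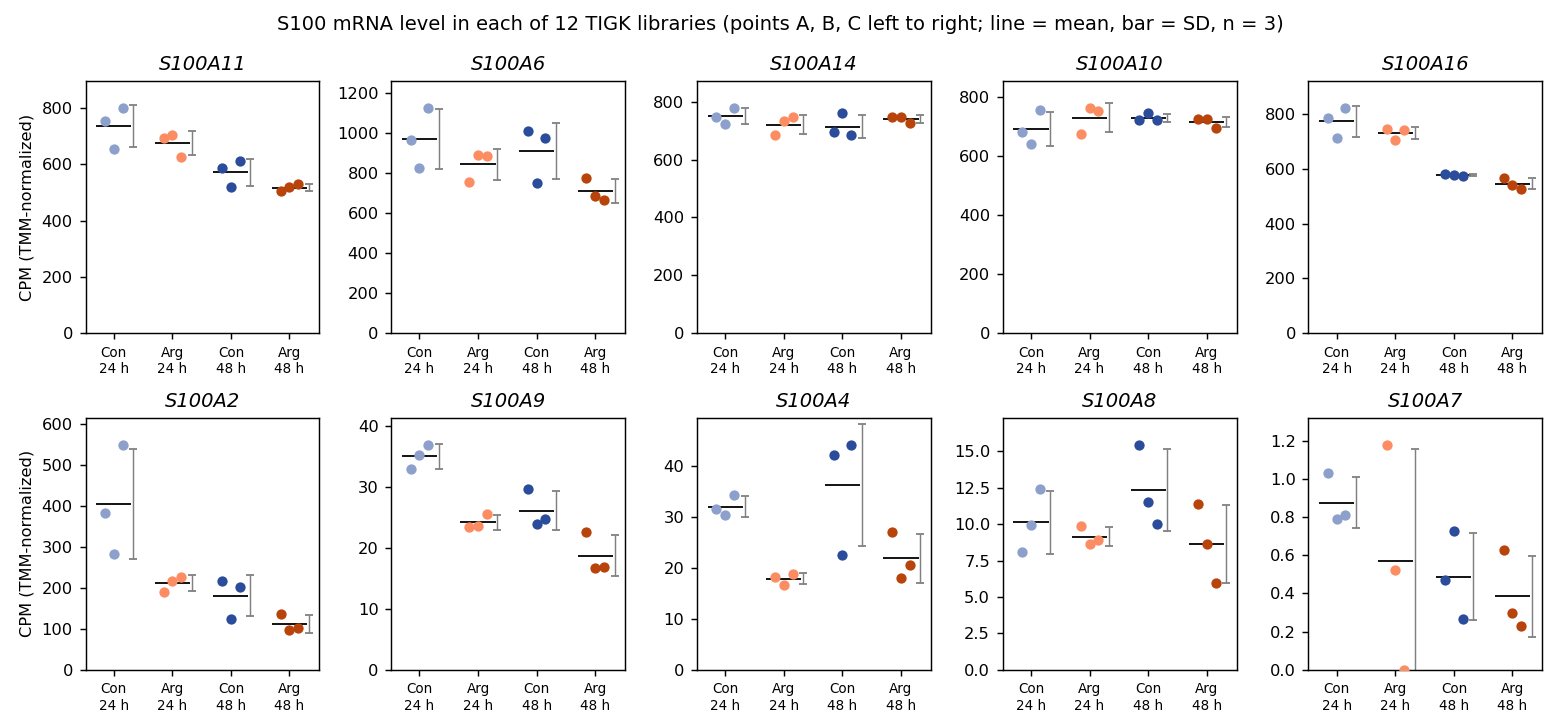
TMM-normalized CPM of each S100 gene in the 12 libraries, by group (Con, untreated control), with replicates A, B, and C from left to right, the mean as a line, and the SD as a bar. For S100A2, S100A4, and S100A9, the 3 Arg points at 24 h lie below all 3 control points, and control replicate B at 48 h lies low for S100A2, S100A4, S100A6, and S100A11.

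With Arg for 48 h, S100A2, S100A4, and S100A9 again had lower means, but no member passed the adjusted threshold in the 3 against 3 comparison. S100A7 was removed by the filter on low counts, and of the other 9 members 0 were called in either direction, against 0.117% of all 14562 genes as lower and 0% as higher. At the unadjusted p under 0.05, 6 of 9 members passed as lower (7.49% of all genes) and 0 as higher (5.94%). These were S100A2, S100A4, S100A6, S100A8, S100A9, and S100A11. DESeq2 called 1 member, S100A6. The median log2 fold change was −0.36 over the 9 members and 0.0018 over all genes tested.
In S100A2, S100A4, S100A6, and S100A11, control replicate B lay among the Arg libraries. S100A2 had 217, 124, and 201 CPM in control replicates A, B, and C and 137, 97.5, and 102 CPM in the Arg libraries, so that replicate B fell within the range of the Arg group. Its log2 fold change was −0.69 ± 0.18 (SE, edgeR adjusted p = 0.161). S100A4 had 42.1, 22.5, and 44.2 CPM in the control libraries and 27.1, 18.0, and 20.5 CPM in the Arg libraries. Again replicate B lay among the Arg libraries, and the log2 fold change was −0.73 ± 0.22 (SE, edgeR adjusted p = 0.204). S100A6 had 1009, 752, and 974 CPM in the control libraries and 777, 686, and 663 CPM in the Arg libraries, with a log2 fold change of −0.36 ± 0.10 (SE, edgeR adjusted p = 0.176).
In S100A9, the groups did not overlap. It had 29.7, 23.9, and 24.7 CPM in the control libraries and 22.7, 16.7, and 16.9 CPM in the Arg libraries, a log2 fold change of −0.48 ± 0.14 (SE, edgeR adjusted p = 0.201). S100A8 had 15.5, 11.6, and 10.02 CPM in the control libraries and 11.4, 8.62, and 5.98 CPM in the Arg libraries, which overlapped. Its log2 fold change of −0.51 ± 0.23 (SE, edgeR adjusted p = 0.352) had nearly the size of that of S100A9. S100A11 had 585, 519, and 610.5 CPM in the control libraries and 504, 518, and 530 CPM in the Arg libraries. Its log2 fold change was −0.15 ± 0.067 (SE, edgeR adjusted p = 0.367).
Without control replicate B, 5 of 9 members were lower at an adjusted p under 0.05, against 8.17% of all 14854 genes then tested, and 0 were higher, against 7.76%. Their log2 fold changes were −0.90 for S100A2, −0.98 for S100A4, −0.48 for S100A6, −0.53 for S100A9, and −0.21 for S100A11, with adjusted p-values in edgeR between 5.34e-07 and 0.00736. S100A8 had −0.55 and an adjusted p of 0.0741 in the same edgeR fit. In the 5 members called, replicate B was the lowest control library, so leaving it out was bound to widen their difference from Arg. Their calls are therefore not a separate test of Arg. With any other library of the comparison left out, 0 members were called. The share of mitochondrially encoded genes in the Arg libraries at 48 h, between 1.14% and 1.31%, lay between that of control replicate B and those of replicates A and C, and the blood cell markers summed to between 0.990 and 1.67 CPM with Arg and between 1.76 and 3.77 CPM without. The part of either in these values was not tested.
S100A10, S100A14, and S100A16 stayed near their control level at 48 h as well. The log2 fold changes were −0.031 (95% interval −0.15 to 0.088), 0.050 (−0.081 to 0.18), and −0.084 (−0.21 to 0.039). For S100A16 the 3 Arg libraries (567, 543, and 529 CPM) still lay below the 3 control libraries (582, 579, and 573 CPM), as in S100A9 and in 8.51% of all genes, while no member lay wholly higher with Arg (8.56% of all genes). An exact permutation test of 3 libraries against 3 cannot give a two-sided p below 0.1.

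**Figure D3:**
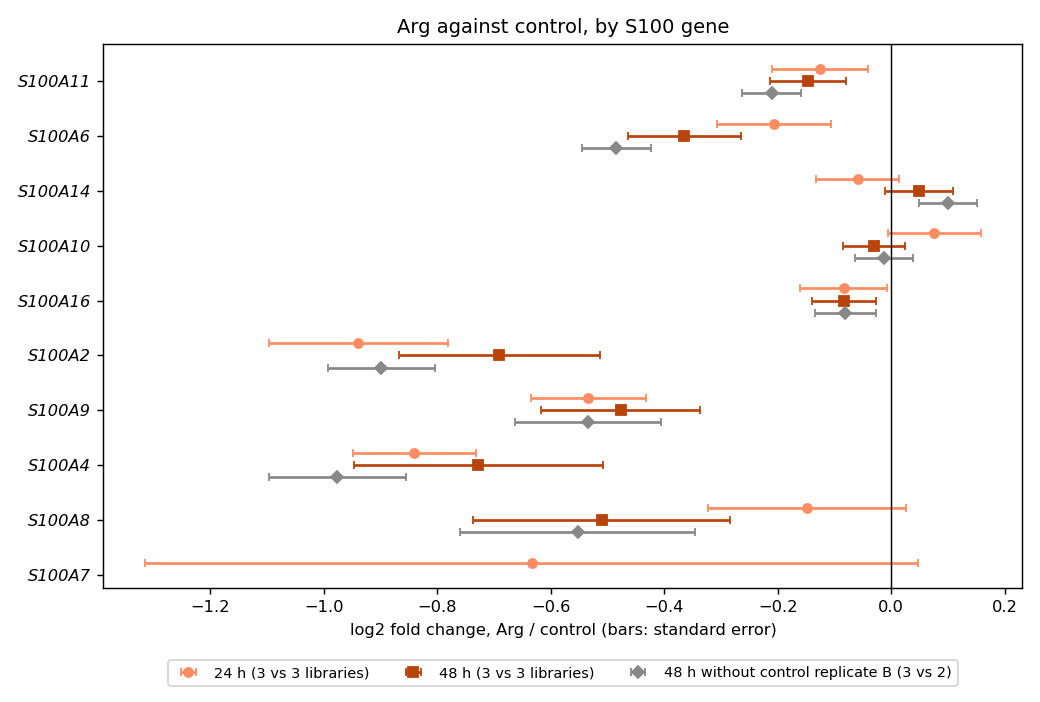
Log2 fold change of Arg against control for each S100 gene at 24 h, at 48 h, and at 48 h without control replicate B, with standard errors as bars (S100A7 was tested at 24 h only). S100A2, S100A4, and S100A9 lie between −0.98 and −0.48 in all 3 fits, while S100A10, S100A14, and S100A16 lie between −0.084 and 0.10.

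The change with Arg at 48 h was compared with that at 24 h in a model of all 12 libraries. Of the 10 members, 0 had an adjusted p under 0.05 for this difference, against 0.0132% of all 15148 genes, all of them in the higher direction and 0% in the lower. At an unadjusted p under 0.05, 0 members were higher (3.06% of all genes) and 0 lower (3.8%). DESeq2 also called 0 members. Subtracting the change at 24 h from that at 48 h (log2 scale) gave 0.25 for S100A2 (standard error 0.27), 0.11 for S100A4 (0.26), 0.058 for S100A9 (0.17), and −0.36 for S100A8 (0.30). The intervals are wide, from −0.98 to 0.26 for S100A8 for example, so that these data do not show equal changes at the 2 times. Without control replicate B at 48 h, the difference of S100A6 was −0.28 with an unadjusted p of 0.0466 and an adjusted p of 0.524 in edgeR's test. As replicate B was the lowest control library of S100A6 at 48 h, leaving it out was bound to lower this value.

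The change with time in culture was tested at each level of Arg. Between 24 and 48 h without Arg, S100A2, S100A9, S100A11, and S100A16 fell. These were 4 of 10 members at an edgeR adjusted p under 0.05, against 10% of all 14449 genes as lower, and 0 were higher, against 9.9%. At the unadjusted p under 0.05 the same 4 were lower (17% of all genes) and 0 higher (17.1%). With Arg, the same 4 genes and S100A6 fell, 5 of the 9 members tested, against 14% of all 14398 genes, and 0 were higher, against 14.3%. At the unadjusted p under 0.05 the same 5 were lower (19.2% of all genes) and S100A4 was higher (19.3%). The median log2 fold change of the members was −0.23 without Arg and −0.25 with Arg (0.012 and 0.00092 over all genes tested). The comparisons with Arg and those over time share libraries, so the values stand side by side and are not independent of each other.
Among the members, S100A2 had the largest change over time, a log2 fold change of −1.16 ± 0.23 without Arg (SE, edgeR adjusted p = 0.00612) and −0.91 ± 0.10 with Arg (SE, edgeR adjusted p = 2.67e-06). It passed with each library left out in turn. Its group means thus went from 404 ± 135 CPM in the control at 24 h to 181 ± 49.9 CPM in the control at 48 h, and from 211 ± 19.1 to 112 ± 21.7 CPM with Arg. The 3 Arg libraries at 48 h lay below every control library at 24 h (137 CPM at most, against 281 CPM at least).
S100A16, whose level hardly moved with Arg, fell over time by about the same amount in both media, with log2 fold changes of −0.42 without Arg (adjusted p = 0.00345 in edgeR) and −0.42 with Arg (adjusted p = 4.52e-05). It had 786, 714, and 823 CPM in the control at 24 h and 582, 579, and 573 CPM in the control at 48 h. S100A11 behaved in a similar way, with −0.36 (adjusted p = 0.0152 in edgeR) and −0.38 (adjusted p = 0.000176), and fell from 752, 655, and 800 CPM to 585, 519, and 610.5 CPM in the control. In S100A2, S100A9, S100A11, and S100A16, the libraries of the 2 times did not overlap, with or without Arg (19.7% of all genes lay wholly lower at 48 h without Arg and 21.2% with Arg, and 19.2% and 21.1% wholly higher, with no member among them). S100A7 also lay wholly lower at 48 h without Arg, with 5 to 14 counts a library against 14 to 19.
S100A9 changed by −0.42 without Arg (adjusted p = 0.0220 in edgeR) and −0.36 with Arg (adjusted p = 0.0331), and S100A6 by −0.090 (adjusted p = 0.644) and −0.25 (adjusted p = 0.0194). The calls of S100A6, S100A9, and, without Arg, S100A11 depended on single libraries. Without control replicate A or C at 24 h, S100A9 and S100A11 did not pass in the control and 2 members were called, and without control replicate C at 48 h S100A9 did not pass. With Arg, 3 members were called without Arg replicate B or C at 24 h or without Arg replicate C at 48 h, where S100A6 and S100A9 did not pass.
Of the 3 members that fell with Arg at 24 h, S100A4 was the only one whose fitted change over time was above 0, with log2 fold changes of 0.18 ± 0.20 without Arg (SE, edgeR adjusted p = 0.558) and 0.29 ± 0.14 with Arg (SE, edgeR adjusted p = 0.118). Without control replicate B at 48 h, it was higher at 48 h than at 24 h in the control, with a log2 fold change of 0.43 (adjusted p = 0.00951 in edgeR). In that fit 5 members were called, S100A4 as the only one higher (7.81% of all genes) and 4 lower (8.6%). With Arg, S100A4 passed without Arg replicate B at 48 h (0.42, adjusted p = 0.0393 in edgeR), where S100A6 and S100A9 did not. In both fits, the library left out was the lowest of its group for S100A4 (22.5 CPM in the control and 18.0 CPM with Arg). Leaving it out was bound to raise the change, so neither call is a separate test of time. S100A14 and S100A10 moved little over time, with log2 fold changes between −0.067 and 0.081 and 95% intervals within −0.22 and 0.24. The summed level of the fibroblast markers was higher at 48 h (between 71.9 and 102 CPM) than at 24 h (between 29.7 and 53.4 CPM), through DCN and COL1A1. That of the endothelial markers was also higher at 48 h (between 4.08 and 6.41 CPM) than at 24 h (between 0.756 and 3.01 CPM). The part of either in these values was not tested.

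**Figure D4:**
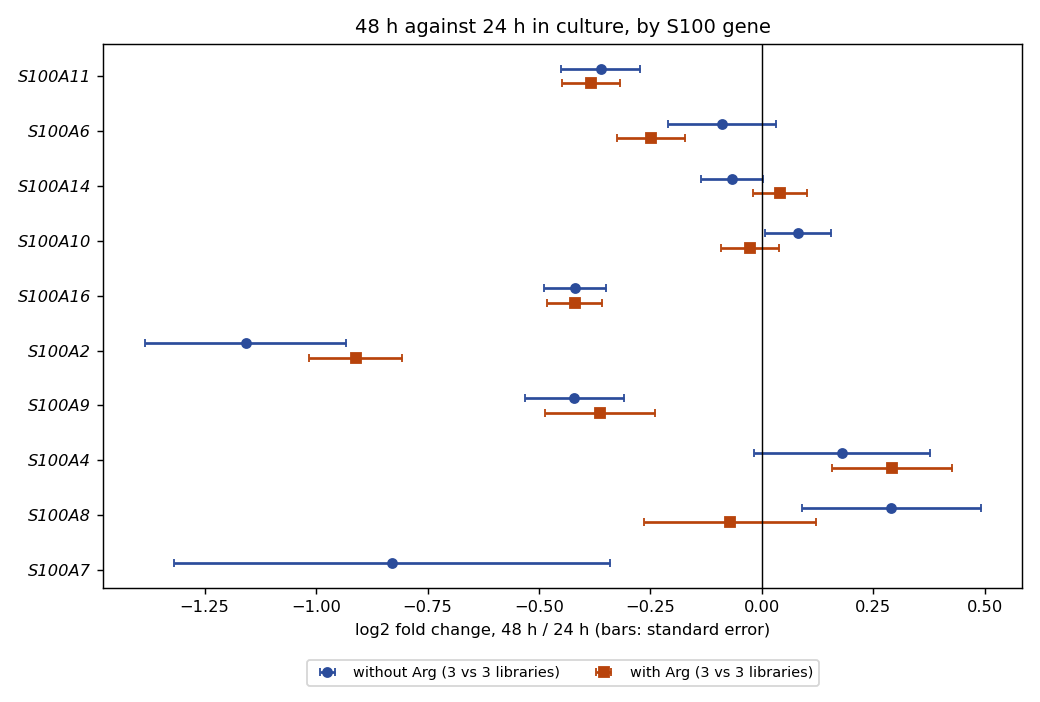
Log2 fold change of 48 h against 24 h for each S100 gene without and with Arg, with standard errors as bars (S100A7 was tested only without Arg). S100A2, S100A9, S100A11, and S100A16 lie below 0 in both media, S100A4 lies at 0.18 and 0.29, and S100A14 and S100A10 lie near 0.

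Along the chromosome, S100A9 fell at 24 h, and S100A8, whose start lies 33.3 kb away, did not pass, with an interval that reached close to the change of S100A9. The neighbours S100A4 and S100A2 fell. S100A6, 7.37 kb from S100A4, did not pass at 24 h with all libraries (−0.21), and it was called lower at 24 h without control replicate B (−0.31) and at 48 h without control replicate B (−0.48). Replicate B was the lowest control library of S100A6 at each time, so leaving it out was bound to widen the difference. The change of S100A6 at 24 h was −0.093 without control replicate C. S100A16, 39.0 kb from S100A2, and S100A14 beyond it moved little at either time. Differences between neighbouring genes were not tested.

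**Figure D5:**
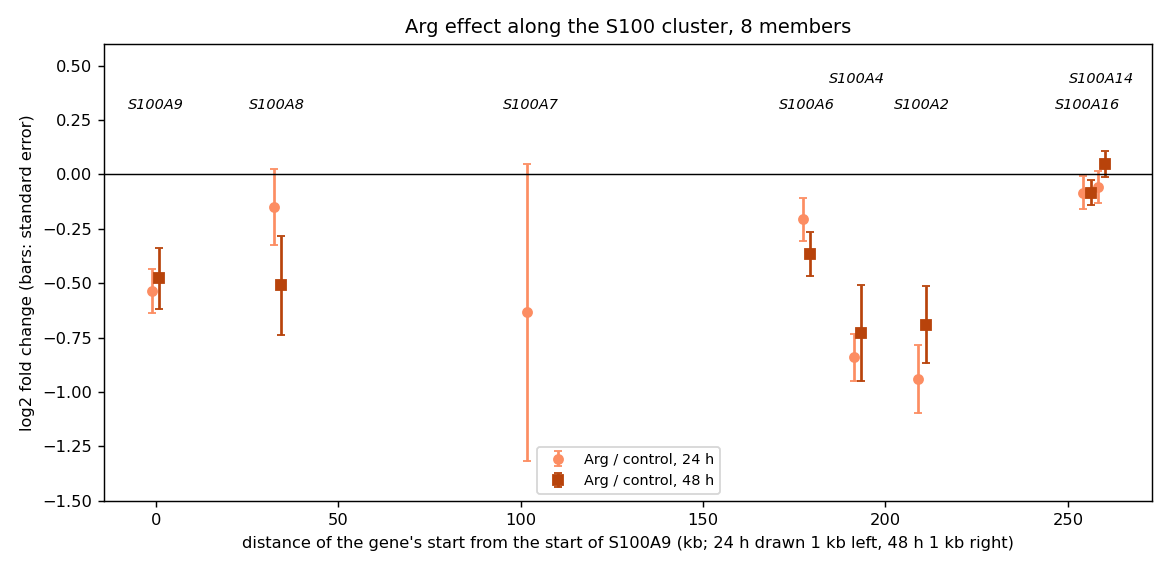
Log2 fold change of Arg against control, with standard errors as bars, for the 8 clustered S100 genes at the distance (kb) of their start from that of S100A9. The values of S100A4 and S100A2 at 192 and 210 kb lie lowest at 24 h, and those of S100A16 and S100A14 at the right end lie near 0.

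The other S100 genes and the partners of S100 proteins were counted from lists. Of 11 other S100 genes, 3 passed the filter on low counts at 24 h, S100A3, S100A13, and S100P. S100A13, which takes part in the release of FGF1, fell from 40.8 ± 1.23 to 29.7 ± 5.25 CPM with Arg at 24 h, with a log2 fold change of −0.46 (adjusted p = 0.0258 in edgeR). At 48 h, its log2 fold change was −0.53 (unadjusted p = 0.000589, adjusted p = 0.133 in edgeR), and 0 of the 4 other S100 genes tested passed. With replicate B of the control left out, it was −0.61 (adjusted p = 0.000187 in edgeR). S100A13 was then the 1 gene of the list called lower (8.17% of all genes), with 0 higher (7.76%). Replicate B was its lowest control library at 48 h, so leaving it out was bound to widen the difference. S100B, S100G, S100Z, and S100A7L2 had 0 counts in all libraries. None of the fused-type S100 genes, which carry an S100 domain at the start of a long structural protein of the cornified layer, passed in any comparison, with 2 of 7 tested at 24 h (TCHH and FLG) and 3 at 48 h.
Of 13 partners and receptors, 12 were tested at 24 h, and 1 was higher and 0 were lower with Arg at an adjusted p under 0.05. Of all genes, 2.79% were higher and 3.84% lower. The partner that rose was MYH9, the nonmuscle myosin heavy chain that S100A4 binds. It went from 888 ± 49.5 to 1233 ± 172 CPM, with a log2 fold change of 0.47 (adjusted p = 0.00458 in edgeR), while S100A4 itself fell. At 48 h, 0 passed, with 2 higher (5.94% of all genes) and 1 lower (7.49%) at the unadjusted p under 0.05. MYH9 had a log2 fold change of 0.32 and AHNAK, the scaffold of the S100A10 and annexin A2 complex, one of 0.38 (adjusted p = 0.157 for each in edgeR's test). Both were higher without control replicate B (0.37 and 0.43, edgeR adjusted p = 0.000506 and 0.000641), and ANXA11 (−0.37) and CACYBP (−0.19) were lower, 2 of 12 in each direction. Of all genes in that fit, 7.76% were higher and 8.17% lower. Replicate B was the highest control library at 48 h for MYH9 and AHNAK and the lowest for ANXA11 and CACYBP. Leaving it out was thus bound to widen these differences, and the calls are not a separate test of Arg. ANXA2 had 3469 ± 459 and 3559 ± 286 CPM at 24 h in control and Arg and 2638 ± 70.2 and 2531 ± 61.6 CPM at 48 h. Over time without Arg, it was lower (log2 fold change −0.39, adjusted p = 0.0104 in edgeR), while its partner S100A10 did not pass. Of the 12 partners tested, 2 were higher and 3 lower over time without Arg, against 9.9% and 10% of all genes. Without control replicate B at 48 h, these counts were 1 and 3, against 7.81% and 8.6%. With Arg, 3 partners were higher and 4 lower over time, against 14.3% and 14% of all genes. TLR4, a receptor of S100A8 and S100A9, had 0 counts in every library.
Markers of squamous differentiation, the program by which keratinocytes mature toward the surface, were counted in the same way. With Arg, 0 of 13 tested at 24 h and 0 of 14 at 48 h passed in either direction in edgeR's test. At the unadjusted p under 0.05 there were 2 higher and 1 lower at 24 h (10.8% and 11.9% of all genes) and 0 higher and 2 lower at 48 h (5.94% and 7.49%). The count at 48 h rested on control replicate B. Without it, 3 of 14 were higher (KRT13 0.98, KRT1 1.00, and KRT10 1.07 on the log2 scale) and 2 were lower (SPRR3 −1.70 and SPRR1A −0.58), with edgeR adjusted p-values between 5.03e-12 and 0.0228, against 7.76% of all genes as higher and 8.17% as lower. Replicate B was the highest control library at 48 h for KRT13, KRT1, and KRT10 and the lowest for SPRR3 and SPRR1A. Leaving it out was therefore bound to widen these differences, and the calls are not a separate test of Arg. Over time without Arg, 5 of 14 were higher, against 9.9% of all genes, among them KRT4 (log2 fold change 1.76), KRT13 (1.48), KRT10 (1.53), and TGM1 (0.71). SPRR1B, a precursor of the cornified envelope, was lower (−0.34), against 10% of all genes, and the other 8 did not pass. Without control replicate B, 6 were higher and 0 lower, against 7.81% and 8.6% of all genes. With Arg, 6 of 14 were higher and 3 lower over time, against 14.3% and 14% of all genes. In the list of inflammatory and antimicrobial genes, 2 of 7 tested were lower with Arg at 24 h (3.84% of all genes) and 0 higher (2.79%). The 2 lower genes were IL1A (log2 fold change −1.16, adjusted p = 0.0295 in edgeR) and CXCL8 (−1.87, adjusted p = 0.0320). IL1A had 7.58, 4.01, and 9.84 CPM in the control libraries and 1.96, 3.67, and 3.97 CPM with Arg. CXCL8 had 7.79, 1.52, and 8.28 CPM in the control and 2.98, 0.873, and 0.967 CPM with Arg, so that its groups overlapped. At 48 h, 0 of 8 tested passed, nor at the unadjusted p under 0.05. SLPI was lower at 48 h without control replicate B (−0.42, adjusted p = 0.0126 in edgeR), 1 of 8 (8.17% of all genes), and 0 were higher (7.76%). As replicate B was the lowest control library of SLPI at 48 h, leaving it out was bound to widen this difference. Over time, CXCL8 was the only gene of this list that fell without Arg (with IL1A also lower without control replicate B at 48 h), and LCN2 the only one that rose with Arg. Replicate B was the highest control library of IL1A at 48 h, so leaving it out was bound to deepen that fall. Of all genes, 10% fell over time without Arg and 14.3% rose with Arg.

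The genes whose profile over the 12 libraries was closest to that of a member were searched among 10498 other genes, by the root mean square difference of centred log2 CPM. For S100A2 (standard deviation 0.74 on the log2 scale), they were IER3 (0.22), SAT1 (0.22), and PLK3 (0.23). SAT1, the acetyltransferase of spermidine and spermine, went from 149 ± 32.2 CPM in the control at 24 h to 86.9 ± 9.61 CPM with Arg, and from 66.0 ± 23.3 to 39.0 ± 2.17 CPM at 48 h. S100A7 followed by standard deviation (0.50), but its counts are so few that its closest gene, SFR1, still differed by 0.33. S100A4 (0.49) was added after the values were seen, and its closest genes were CDA (0.17), IRF7 (0.18), and CD55 (0.20). These distances are descriptions over libraries that share groups.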

How the data were processed

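Polyadenylated RNA of TIGK cells was sequenced in 12 libraries. According to the submitters' processing notes, the authors trimmed the reads (fastp), aligned them to the human genome GRCh38/hg38 (STAR), and counted them per gene (featureCounts), and they deposited a table of raw read counts for 58735 genes, with no normalization. Whether counting used the strand, and the tool versions, are not given in the sources used here. The 10 S100 genes were taken by gene name, and libraries were grouped by their titles. All 12 columns of counts were used.

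Low genes were removed for each comparison with filterByExpr (minimum count 10), libraries were scaled by TMM, and each comparison was fitted on its own libraries with edgeR's quasi-likelihood test (edgeR 4.0.16, R 4.3.3), with Benjamini–Hochberg adjustment over all genes tested and a threshold of 0.05. The interaction used all 12 libraries. DESeq2 1.42.0 was an alternative, as were other scalings and filters, a replicate block, a single model, and leaving out each library. Scripts were tested on simulated data. Intervals are 95% intervals, and the floor of 3 counts covers counting error only. All 10 members were named. Of the genes called in other lists, at most 4 in each direction of a comparison were named, mostly those with the smallest p-values. For the 2 most variable members, and S100A4 added later, the 3 nearest genes with a mean of at least 5 CPM were named (pseudocount 0.5 CPM). The members, lists, and motifs were chosen with earlier results of these data known.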

Additional observations from a re-analysis of the deposited data

How the results depend on the processing

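With Arg at 24 h, the calls of S100A2, S100A4, and S100A9 held under all 7 other settings and with each of the 6 libraries left out. The comparison at 48 h depended on the setting: against 0 members and 17 genes, DESeq2 called 1 member and 184 genes, no filter on low counts 4 and 573, the replicate block 4 and 184, and all 12 libraries in a single model 0 and 41. Scaling by library size alone called 3 members over time with Arg (4 in the single model, where S100A6 was lost, and 5 under the other 5 settings), turned S100A10 there to 0.030, and turned the interaction of S100A16 to −0.0043 (−0.0020 with at least 10 counts in every library). For the interaction, DESeq2 called 23 genes and no filter 88, against 2, and S100A2 had an unadjusted p of 0.0284 with no filter. The cause of these differences was not tested. The list counts without control replicate B at 48 h were added after seeing the data.

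Leaving out libraries gave 359 (without control replicate A) to 1529 (B) genes with Arg at 24 h, against 402 without Arg replicate B, 381 without C, and 438 without control replicate C. With Arg at 48 h it gave 0 to 5 members and 6 to 2365 genes, the higher values without control replicate B and at most 11 genes without any other library. Over time, it gave 2 to 5 members and 828 to 3304 genes without Arg (828 without control replicate A and 998 without C at 24 h, 1832 without A at 48 h) and 3 to 5 members with Arg. For the interaction it gave 0 to 46 genes (46 without control replicate B at 48 h, 10 without control replicate B at 24 h). Uncalled changes crossed 0 for S100A8 with Arg at 24 h (−0.29 to 0.017), S100A6 over time without Arg (−0.20 to 0.031), and S100A8 (−0.33 to 0.14) and S100A10 (−0.083 to 0.0060) over time with Arg. So did the interactions of S100A2 (−0.035 to 0.46), S100A4 (−0.14 to 0.28), S100A7 (−0.29 to 1.43), S100A9 (−0.10 to 0.16), S100A11 (−0.085 to 0.068), and S100A16 (−0.044 to 0.067).

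Libraries with the same letter showed no pairing common to the 4 comparisons. The correlations of their deviations from the group means ran from −0.091 to 0.19, and 1, 3, 4, and 0 of 6 libraries correlated best with their own letter. Over time without Arg, where 4 did, all 3 letters had correlations above 0 (0.052 to 0.19). Whether a letter marks a shared culture or day was not tested. Depth limits S100A7, with at most 21 counts in a library, and the 3 libraries a group limit the rest.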
